A study of Sus scrofa with 4 samples.

Results

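POU5F1, SOX2, SOX15 and GATA6 are transcription factor genes grouped here under the inner cell mass, the cells inside the blastocyst from which the epiblast and the hypoblast form. They were 4 of the 11908 genes named on a 2-colour oligonucleotide array and were represented by 5 of its 43794 probes, chosen by the gene symbol in the platform's probe table. POU5F1 had 2 probes, EMPV1_27718 and EMPV1_24242, SOX2 had EMPV1_07172, SOX15 had EMPV1_33590 and GATA6 had EMPV1_30525. The study compared porcine (Sus scrofa) blastocysts. Coculture blastocysts came from cumulus-oocyte complexes, the oocyte with its surrounding cumulus cells, that were matured together with porcine luteal cells, which form the corpus luteum and secrete progesterone. Control blastocysts came from complexes in the control condition, which the labels do not describe further. The labels state 4 pools of 10 blastocysts from days 7 and 8, without saying which pool came from which day or whether the 4 pools are counted per condition. Each of the 4 arrays, named as biological replicates 1 to 4, carried 1 pool of each condition. Coculture RNA was in Cy5 on replicates 1 and 2 and in Cy3 on replicates 3 and 4. Whole blastocysts were pooled and the RNA was amplified, so the arrays do not show which cells a signal came from. A change in the number of epiblast, hypoblast or other cells and a change in RNA per cell cannot be told apart. Nothing in the labels ties the pools to donors or culture batches, and p-values cover only how far the pairs of pools differ from each other, which may be technical.

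In mammalian blastocysts the outer trophectoderm surrounds the inner cell mass, which separates into the pluripotent epiblast and the hypoblast, the endoderm that lines the cavity. POU5F1 (OCT4) and SOX2 bind DNA as partners at many genes of pluripotent cells, and SOX15 is a related SOX protein that can also bind with OCT4 in mouse embryonic stem cells. GATA6 is a zinc finger factor that directs inner cell mass cells to the hypoblast in the mouse, where fibroblast growth factor signalling favours that fate.

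The signal of each spot was the median pixel intensity. A probe counted as above the detection limit of a channel when it was brighter than the 153 negative-control spots there by 2 SD over their mean. Limits were 699 to 978 in the coculture channels and 800 to 952 in the control channels. On each array a larger share of probes exceeded the limit in Cy3 than in Cy5, 29.8% to 34.8% in Cy3 and 23.5% to 29.2% in Cy5, whichever pool carried the dye. Over all probes, 16.4% exceeded the limit in all 8 channels and 52.1% in none. The trophectoderm keratin genes KRT8 and KRT18, which mark the blastocyst's outer epithelium, were above it in every channel with both of their probes.

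POU5F1 and GATA6 were above the limit in all pools, and SOX2 and SOX15 were below it in most. No difference between coculture and control pools of a member was larger than the spread over arrays at a limma adjusted p under 0.05. POU5F1 ratios lay below 0 on 3 of 4 arrays with both probes, GATA6 and SOX15 ratios lay above 0 on 3 of 4, and SOX2 was too dim to be tested. Of the 15631 probes tested, 0% (0 probes) passed at an adjusted p under 0.05, and 7.86% (1228) had an unadjusted p under 0.05. Among the 4 member probes tested, 1 had an unadjusted p under 0.05, the brighter probe of POU5F1, which was lower in coculture as were 3.7% of all probes tested at that p. For none of the 5 member probes did the normalized levels of the 4 coculture pools and the 4 control pools separate without overlap, as they did for 1.52% of the probes tested. No member ratio had 1 sign on all 4 arrays either, which 13.2% of the probes tested had. With mean pixel intensities the dimmer POU5F1 probe lay below 0 on all 4.

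**Figure D1:**
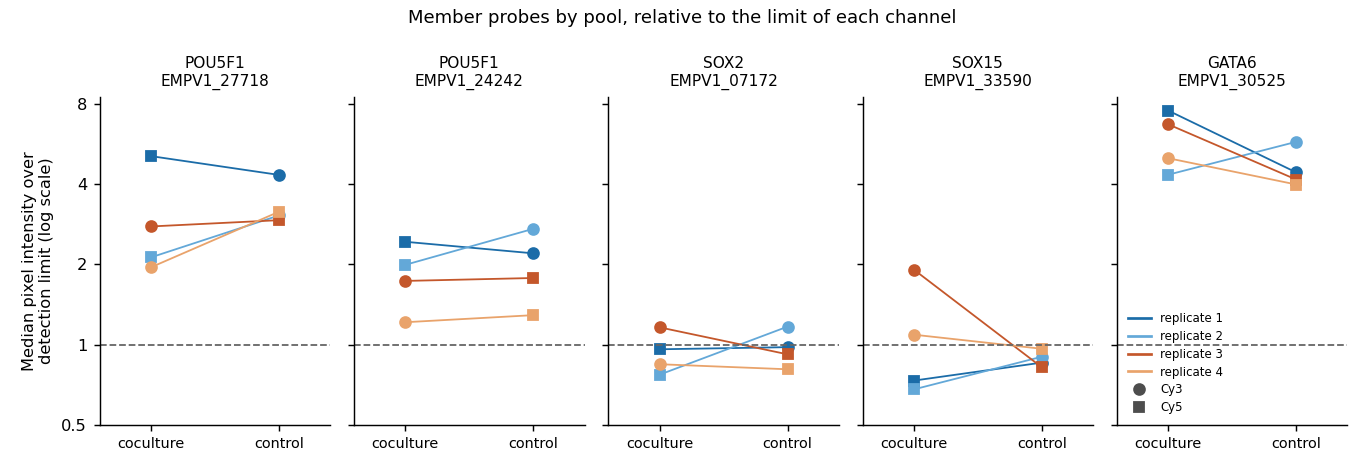
Median pixel intensity of each member probe divided by the detection limit of its channel (log axis), for the 4 coculture pools and the 4 control pools; lines join the pools on 1 array, circles are Cy3 and squares Cy5, and the dashed line is the limit. POU5F1 and GATA6 lay above the limit in all 8 channels, while SOX2 exceeded it in 1 coculture and 1 control channel and SOX15 in 2 coculture channels and no control channel.

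POU5F1 was above the limit in all 8 channels with both of its probes. Probe EMPV1_27718, the brighter, had median pixel intensities of 3558, 2077, 1948 and 1749 in the coculture pools of replicates 1 to 4, against 3687, 2852, 2788 and 2519 in the control pools. The coculture pool of replicate 1 was the brightest of its group and fell within the control range, while the other 3 coculture pools were below every control pool. In the raw intensities dye and pool are mixed, so ratios were taken after background correction and loess normalization, which removes a dye difference that depends on intensity. A dye difference particular to a probe can remain. Over the probes tested, ratios of coculture over control correlated at 0.20 and 0.17 between arrays of the same dye orientation. Between arrays of opposite orientation the correlations were -0.19 to -0.027. For EMPV1_27718 the log2 ratios of coculture over control were 0.077, -0.37, -0.47 and -0.75 on replicates 1 to 4.

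The fitted log2 ratio of this probe was -0.38 (SE 0.15, 95% interval -0.73 to -0.021, n = 4 arrays), a ratio of 0.770. It had an unadjusted p of 0.0405 and an adjusted p of 0.633 in limma, and did not pass. Normalized log2 levels averaged 10.90 ± 0.49 in coculture pools and 11.28 ± 0.22 in control pools (SD, n = 4 each). The mean ratio was -0.15 on replicates 1 and 2 and -0.61 on replicates 3 and 4, and the dye term had an unadjusted limma p of 0.174. With mean in place of median pixel intensities the fitted ratio was -0.21.

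The second POU5F1 probe, EMPV1_24242, was dimmer, with intensities of 1698, 1947, 1217 and 1088 in the coculture pools and 1873, 2541, 1692 and 1031 in the control pools. It was lowest against the limit on replicate 4, at 1.21 times in the coculture pool and 1.29 times in the control pool. The 2 groups overlapped over most of their range. The log2 ratios were 0.071, -0.29, -0.48 and -0.18 on replicates 1 to 4, and the fitted ratio was -0.22 (95% interval -0.57 to 0.13, limma adjusted p = 0.747). On replicates 1, 2 and 3 the ratios of the dimmer probe minus those of the brighter one were -0.0059, 0.077 and -0.012, so that both probes gave nearly the same ratio on 3 of 4 arrays. On replicate 4 they were 0.57 apart. The mean over both probes was -0.30. The probes share pools and arrays and are not independent measurements.

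SOX2, the partner of OCT4, was near the limit of the arrays in all pools. Its intensities were 671, 754, 815 and 757 in the coculture pools and 833, 1092, 875 and 646 in the control pools, each within 0.771 to 1.16 times the coculture limit or 0.808 to 1.17 times the control limit. The coculture pool of replicate 3 and the control pool of replicate 2 exceeded their limits, and the other 6 values did not. The probe was left out of the test because it passed the limit on fewer than 2 arrays in either condition. Its log2 ratios were 0.0088, -0.63, 0.27 and -0.29, with 2 arrays above 0 and 2 below, and the fitted value was -0.16 without a test.

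SOX15 was above the limit in 2 coculture pools and in no control pool, and 3.13% of the probes tested were above it in no control pool. The coculture intensities were 512, 664, 1341 and 977 on replicates 1 to 4, against control intensities of 729, 842, 782 and 771. In these raw intensities the control pools lay close together, while the coculture pools held both the lowest and the highest values. Dye and pool are mixed in them. In normalized log2 levels the control pools ran from 7.79 on replicate 2 to 8.92 on replicate 4. The lowest level was then that control pool of replicate 2, and the highest was the coculture pool of replicate 3, at 10.06. The SD of these levels was 0.47 in control pools and 1.02 in coculture pools (n = 4 each). The log2 ratios were -0.24, 0.064, 1.56 and 0.084, so the single large ratio was on replicate 3, where 1.08% of the probes tested had a ratio as high or higher.

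The fitted SOX15 ratio was 0.37 (95% interval -0.17 to 0.91, limma adjusted p = 0.721), and without replicate 3 it was -0.0030. The probe entered the test only through the 2 coculture pools above the limit. Its ratio and p therefore depend on that choice and are no support for a higher coculture level. Because no control pool and only 2 coculture pools exceeded the limit, no fold of levels is given. Without replicate 4 the fitted ratio was 0.73, and without background correction 0.17. Its residual SD between arrays was 0.75, larger than or equal to that of 95.5% of the probes tested, whose median was 0.29. The mean ratio was -0.090 on replicates 1 and 2 and 0.82 on replicates 3 and 4.

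The dye moved with the detection of the dim members. The 4 values of SOX2 and SOX15 above a limit were all in Cy3, of 8 channel values in Cy3, and 0 of 8 values in Cy5 exceeded it. Both SOX15 detections in coculture pools came from replicates 3 and 4, on which coculture RNA carried Cy3. The part of the dye in these detections was not tested. The dye term of SOX15 in the fit had a limma unadjusted p of 0.0877.

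GATA6, the hypoblast factor, stood at 4.34 to 7.54 times the limit in coculture pools and 3.98 to 5.76 times in control pools. Its intensities were 5273, 4240, 4706 and 4486 in the coculture pools, against 3767, 5386, 3959 and 3186 in the control pools. Raw intensities mix dye and pool. In them the 4 coculture pools lay between the brightest control pool, that of replicate 2, and the other 3 control pools. Normalized log2 levels were 12.20, 11.85, 12.23 and 12.20 in the coculture pools and 11.57, 12.05, 11.86 and 11.65 in the control pools. By these levels the coculture pools of replicates 1, 3 and 4 lay above every control pool. The coculture pool of replicate 2 lay below the control pools of replicates 2 and 3. The log2 ratios were 0.63, -0.20, 0.37 and 0.55 on replicates 1 to 4. On replicate 1, 5.86% of the probes tested had a ratio as high or higher, and on replicate 4, 6.42%.

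The fitted GATA6 ratio was 0.34 (SE 0.18, 95% interval -0.068 to 0.74), a ratio of 1.26, with an unadjusted p of 0.0915 and an adjusted p of 0.678 in limma. It did not pass. Normalized log2 levels averaged 12.12 ± 0.18 in coculture pools and 11.78 ± 0.22 in control pools (SD, n = 4 each). The mean ratio had the same sign in both dye orientations, 0.21 on replicates 1 and 2 and 0.46 on replicates 3 and 4. The fitted ratio was 0.13 without replicate 1, 0.55 without replicate 2, and 0.15 with mean pixel intensities.

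**Figure D2:**
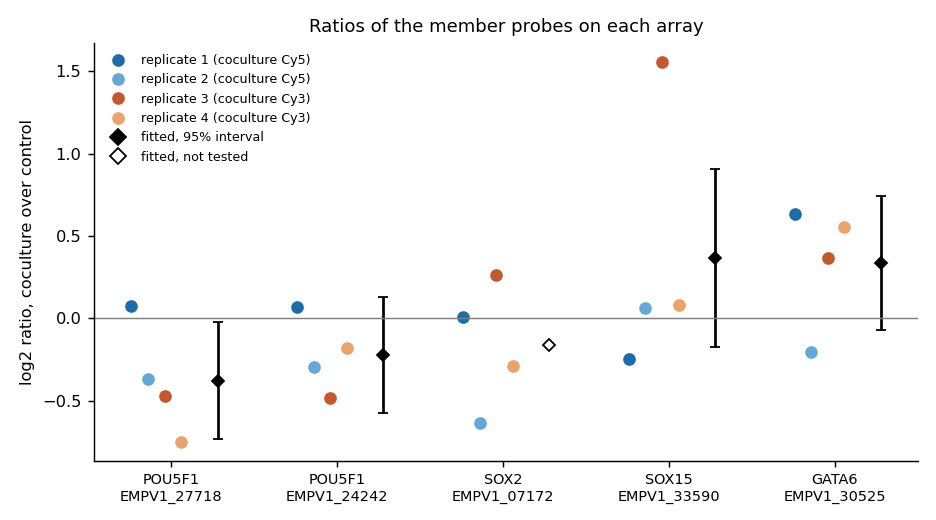
Log2 ratios of coculture over control for the 5 member probes, with 1 point per array coloured by replicate, and the fitted ratio with its 95% interval as a black diamond (open for SOX2, which was not tested). Both POU5F1 probes lay below 0 on replicates 2, 3 and 4, GATA6 lay above 0 on replicates 1, 3 and 4, and the SOX15 value of 1.56 on replicate 3 stood apart from its other 3 values.

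Within an array the ratios of 2 genes can be set against each other, which takes out any difference between the pools that acts on both ratios alike. The GATA6 ratio was above the POU5F1 ratio on all 4 arrays. With the brighter POU5F1 probe the difference of log2 ratios was 0.55, 0.17, 0.84 and 1.30 on replicates 1 to 4, a mean of 0.71 ± 0.48 (SD, n = 4). With the dimmer probe it was 0.56, 0.090, 0.85 and 0.73, a mean of 0.56 ± 0.33. No such statement is made against SOX2, which was below the limit in 6 of 8 channels: its ratio lay below that of GATA6 on all 4 arrays with median pixels, but on replicate 1 it was 0.46 with mean pixels, against 0.31 for GATA6.

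These differences were computed after the array values had been seen, for all 10 pairs among the 5 probes, and the pairs with GATA6 share its values. In 2 of the 6 pairs of tested probes, those of GATA6 with POU5F1, the difference had 1 sign on all 4 arrays, and over all pairs of probes tested this held for 13.5%. These pairs set GATA6 against the same gene on the same pools and arrays, so they are not separate results. The exact two-sided sign permutation test gave p = 0.125 for each of these pairs, the smallest that 4 arrays allow, and 0.417 after adjustment over the 10 pairs. The difference from the brighter POU5F1 probe had a mean of 0.36 with mean pixel intensities, again above 0 on 4 of 4 arrays, and of 0.65 in the authors' deposited table. SOX15 minus GATA6 showed no common sign, since GATA6 exceeded SOX15 on 2 arrays and lay below it on 2.

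**Figure D3:**
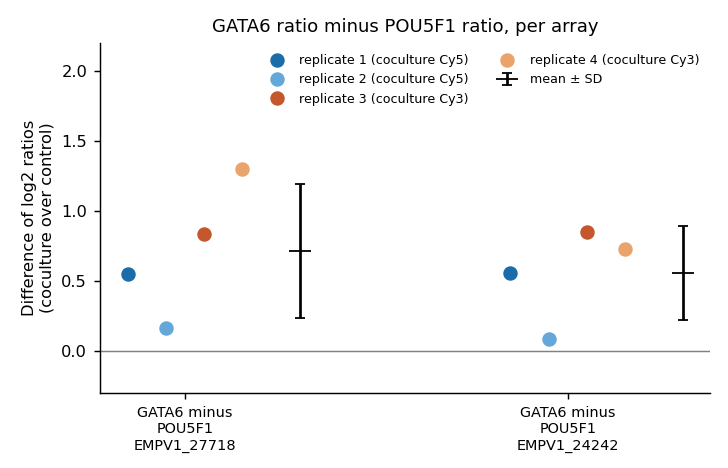
Difference of the log2 ratios (coculture over control) between GATA6 and each POU5F1 probe, with 1 point per array and the mean with its SD in black. All 8 points lay above 0, and the lowest were those of replicate 2, at 0.17 and 0.090.

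The epiblast and pluripotency list was described by counts, which include POU5F1 and SOX15 and, among the genes not tested, SOX2. Of its 31 genes, 19 had a named probe and 8 were tested, of which 3 lay above 0 and 5 below, with a median log2 ratio of -0.076. Over all 5353 genes tested, by the brightest probe of each, 51.2% lay below 0 and 48.8% above, and the median was -0.0061. Adjusted over all probes 0 of the 8 passed in limma, and 1 (POU5F1) had an unadjusted p under 0.05, against 8.46% of all genes tested. UTF1, a chromatin-associated factor of pluripotent cells, stood at -0.065 and ZFP42 (REX1), a zinc finger marker of them, at -0.087. LIN28A, an RNA-binding protein that blocks let-7 maturation, stood at -0.11. DPPA5 stood at -0.088 with array values of 0.17, 0.99, -1.58 and 0.065. KLF5 and TBX3, transcription factors that support self-renewal of mouse embryonic stem cells, stood at 0.055 and 0.095. NANOG had no probe named here, and SALL4 was above the limit in no pool.

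Among hypoblast genes, GATA6 included, 14 of 22 had a named probe and 7 were tested, 3 above and 4 below 0, with a median of -0.19. None passed in limma, and 0 had an unadjusted p under 0.05. Only NID2 and BMP2 of the other tested hypoblast genes shared the positive sign of GATA6, by the brightest probe of each. LAMB1, a laminin chain of the basement membrane, stood at -0.43 (95% interval -0.94 to 0.070), COL4A1, a collagen of the same layer, at -0.28 with its other probe at 0.029, and FST, the activin-binding protein follistatin, at -0.40 (-0.85 to 0.039). DAB2, an endocytic adaptor of the mouse primitive endoderm, stood at -0.19 by its brightest probe, with other tested probes at 0.30 and -0.16. BMP2, a secreted ligand, stood at 0.16. NID2, a basement membrane nidogen, stood at 0.42 (-0.046 to 0.89) by its brightest probe, with other tested probes at -0.22 and -0.43. With the mean over the probes of each gene the list median was -0.075. GATA4 and SOX17 had no probe named here, and PDGFRA, a receptor of early mouse hypoblast, was above the limit in no pool.

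Of 25 genes of fibroblast growth factor and MAP kinase signalling, 10 were tested, 4 above and 6 below 0, with a median of -0.030. Adjusted over all probes 0 passed in limma, and 2 had an unadjusted p under 0.05. FGFR4 stood at -0.51 (95% interval -0.85 to -0.17) with its other tested probe at 0.063, and FGFR2 at 0.41 (0.072 to 0.75) with its other tested probe at -0.020. Neither receptor had 1 sign on all 4 arrays, the FGFR2 ratios being 0.029, -0.30, 1.05 and 0.87. FGF4, the ligand made by epiblast cells, exceeded the limit in 1 coculture pool and in no control pool and was not tested. FGFR1, its receptor in the inner cell mass of the mouse, was too dim to be tested with any of its 3 probes.

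The SOX family was mostly dim. Of 20 SOX genes, 12 had a named probe, 2 were tested and 8 were above the limit in no pool. The other tested SOX gene, SOX11, stood at -0.13 (95% interval -0.46 to 0.20). Of 9 genes of the GATA family and its cofactors 6 had a named probe and 3 were tested, all 3 above the limit in every channel, GATA6 above 0 and the trophectoderm factors GATA2 and GATA3 below, at -0.48 (-0.90 to -0.072) and -0.14. GATA2 lay below 0 on all 4 arrays, at -0.16, -0.87, -0.73 and -0.18, as did 6.92% of the probes tested. Neither passed in limma (adjusted p = 0.630 and 0.877). Of 15 POU genes 3 were tested. POU2F1 (OCT1), a widely expressed relative of POU5F1, stood at 0.090. POU1F1, the pituitary factor PIT1, stood at 0.68 by 1 of its 5 probes, with array values of -0.060, -0.0092, 2.31 and 0.46, and like SOX15 it had its highest ratio on replicate 3.

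**Figure D4:**
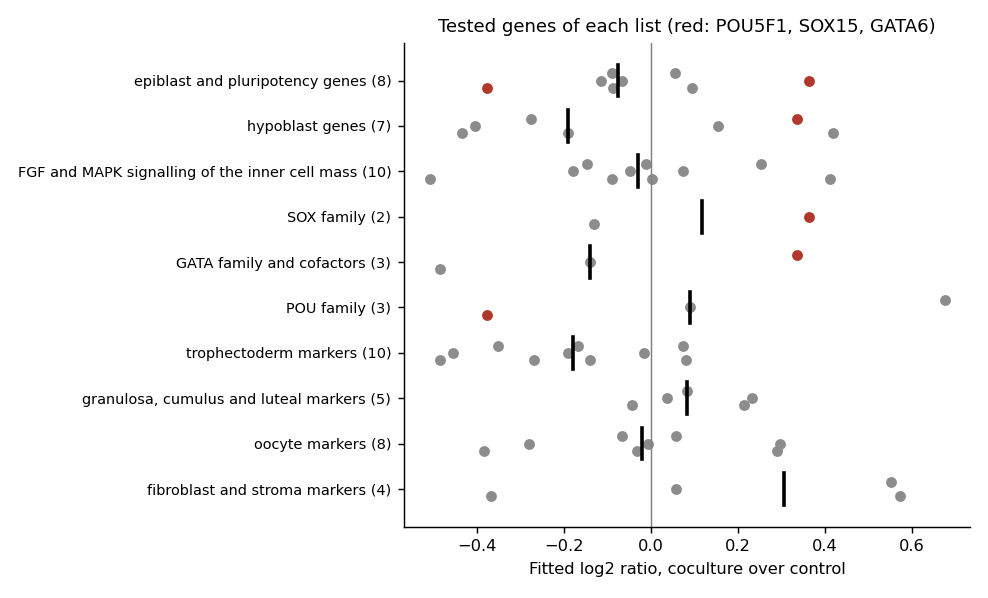
Fitted log2 ratio of coculture over control for each tested gene of 10 lists, by its brightest tested probe, with the number tested in parentheses; vertical bars are list medians and red points are members. POU5F1 at -0.38 and SOX15 at 0.37 were the ends of the epiblast list. GATA6 at 0.34 lay above the hypoblast median of -0.19, in which it is counted.

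Markers of other cells were set beside these values. Of 17 trophectoderm genes 10 were tested, 8 of them below 0 by the brightest probe, with a median of -0.18, KRT8 at 0.074 and KRT18 at 0.082. With the mean over the probes of each gene the median was -0.11. CDX2, which represses POU5F1 in mouse trophectoderm, stood at -0.19, 0.15 and -0.25 with its 3 probes. TEAD4, which acts upstream of CDX2 in the mouse, stood at -0.45 (95% interval -0.92 to 0.015), with other tested probes at -0.39, 0.010 and -0.44. The summed normalized signal of the trophectoderm list ranged from 181565 to 227106 in coculture pools and from 186327 to 217129 in control pools. KRT8 and KRT18, the tested genes of highest level, weigh most in this sum. The part of the trophectoderm list in the POU5F1 and GATA6 ratios was not tested.

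Of the 14 granulosa, cumulus and luteal markers 11 had a named probe, 0 were above the limit in all 8 channels and 3 in none, with summed signals of 4786 to 5340 in coculture pools and 4343 to 4944 in control pools. STAR, the cholesterol carrier of steroid-making cells, stood at 0.085. AMH, a granulosa hormone, stood at 0.21, and HAS2, the hyaluronan synthase of expanding cumulus, at 0.23. Of the oocyte markers, summed signals ranged from 4527 to 6442 in coculture pools and from 4848 to 6255 in control pools. MOS, the meiotic kinase, stood at -0.38 and ZAR1L at 0.30, and BMP15, an oocyte growth factor, was above the limit in no pool. Fibroblast and stroma markers summed to 5436 to 10217 in coculture pools and 4149 to 6688 in control pools. Of these markers 4 were tested, by the brightest probe 3 above 0 and 1 below, with a median of 0.31, the highest of the 10 lists. With the mean over the probes of each gene the median was 0.24. In limma 0 passed, adjusted over all probes. TAGLN, an actin-binding protein, stood at 0.55 and was the only gene of the list above the limit in every channel. ACTA2, smooth muscle actin, stood at 0.57, above the limit in 2 coculture pools and 1 control pool. COL1A1, a fibrillar collagen, stood at 0.059 with its other tested probe at -0.22, while DCN, the proteoglycan decorin, stood at -0.37. The COL1A1 and DCN probes given first were above the limit in 2 pools of each condition. The part of the granulosa, oocyte and stroma markers in the members' ratios was not tested.

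The genes with the most similar pattern were found by the root-mean-square difference of the 4 array ratios from those of each member, by the brightest tested probe of 5329 or 5330 other genes. For POU5F1 they were CD40, a receptor of the tumour necrosis factor family, at 0.0912, LOC100627967 at 0.105 and BTBD1 at 0.114, and 53 genes lay within 0.2. GATA6 had LIPH, a phospholipase, at 0.0504, KIAA0100 at 0.0893 and the kinesin gene KIF25 at 0.0894, among 32 genes within 0.2. SOX15 had 6 genes within that distance, fewer than any other member. The closest were FOLR1, a folate receptor, at 0.139, NID2 at 0.150 and EPS15L1, an endocytic adaptor, at 0.176, and all 3 had their highest ratio on replicate 3, of 1.33, 1.45 and 1.57. SOX2 had DDRGK1 at 0.0569, the secreted factor gene NENF at 0.0681 and the DNA repair gene MUTYH at 0.0781, among 98 genes within 0.2. With 4 arrays, likeness of pattern is a description only.

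In 17 other fits, each POU5F1 and GATA6 ratio kept its sign. In some of these the sign could not change. Those that altered only the filter, dye term, variance model, Aquantile step or separation of channels returned the main ratio. EMPV1_27718 ranged from -0.49 to -0.21 and EMPV1_24242 from -0.31 to -0.13, while GATA6 ranged from 0.13 to 0.55. None of the 17 fits gave an adjusted p under 0.05 for a member in limma, the lowest being 0.222, for SOX15 without replicate 4. SOX15 ranged from -0.0030 to 0.73, and the fitted value of SOX2 from -0.32 to -0.00083.

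**Figure D5:**
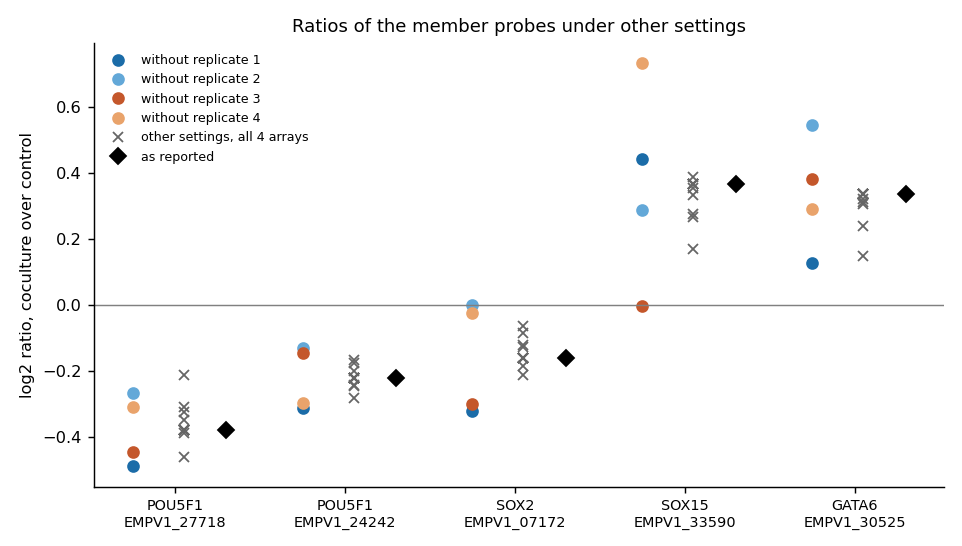
Log2 ratio of coculture over control for each member probe when 1 replicate was left out (coloured), under other background, normalization, filter and model settings with all 4 arrays (crosses), and as reported (diamonds). SOX15 ranged from -0.0030 without replicate 3 to 0.73 without replicate 4, and GATA6 from 0.13 without replicate 1 to 0.55 without replicate 2.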

How the data were processed

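Spot intensities came from the scanner tables the authors deposited, 1 per array, with median and mean pixel intensity and local background for Cy3 and Cy5 on a linear scale. The authors also deposited log2 ratios per array, made with limma per the submitters' processing notes. They correlated with Cy5 over Cy3 after plain background subtraction and loess at 0.941 to 0.961 across probes, which sets the direction. The column medians were -0.0133, -0.0130, -0.00040 and -0.0167, and the exact centring stays unknown.

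Here limma 3.58.1 in R 4.3.3 was applied to the median intensities: normexp background correction with an offset of 50, then loess within arrays, in which control spots had no weight. Between 74 and 150 spots per array carried an ignore flag, none of them a member, and were dropped. Log2 ratios were fitted with lmFit and eBayes, with a dye intercept and a coculture term. Probes were tested if above the limit on at least 2 arrays in 1 condition, with values on at least 3 arrays, and p-values were adjusted by Benjamini-Hochberg over all 15631. Precision is limited by the 4 arrays, and the median 95% half-width was 0.36. Channel levels followed loess and Aquantile, and the fit was tested on simulated data.

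Members and gene lists were chosen with earlier results of these data known. Named genes were the members, the 2 genes of smallest p per list, a fixed marker set and the 3 nearest patterns per member. Other tested genes of the epiblast and hypoblast lists, all granulosa and fibroblast markers tested, and GATA3 and POU2F1, were named to complete their lists. Symbols came from the platform table, updated through RefSeq (Sscrofa11.1, names only): of 18121 probes with a symbol, 17772 were current, 104 matched by accession and 243 by synonym. Alternatives covered background, pixel summary, normalization, filter, dye term, variance model, the authors' table, separate channels and each replicate left out.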

Additional observations from a re-analysis of the deposited data

Results flagged for a closer look

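The normalized log2 level of GATA6 in the coculture pool of replicate 2, 11.85, lay apart from the other 3 coculture pools, with a gap of 0.923 of the group's range, past Dixon's 95% critical value. It was 1 of 15 groups of 4 values examined over the 5 probes, and chance sets apart about 1 group in 20. The same array held the brightest control pool and the single GATA6 ratio below 0.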

How the results depend on the processing

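The count of probes at an adjusted p under 0.05 was 0 under each of the 17 alternatives, including the quantile normalization added after seeing the data. The count at an unadjusted p under 0.05, 1228 in the main analysis, was 2634 without a filter on dim probes and 641 with the strictest filter, which changed the number of probes tested. It was 815 without the dye term, 1898 with separate channels paired by spot, and 257 with separate channels and no replicate block, where the array that joins the 2 pools is ignored. It ranged from 608 to 1512 with 1 replicate left out, the lowest without replicate 2. SOX15 ranged from -0.0030 to 0.73 with 1 replicate left out and averaged -0.090 on replicates 1 and 2. The SOX15 probe exceeded the limit in 1 coculture pool at a mean plus 3 SD limit, and in 1 control pool at the 95th percentile, where SOX2 exceeded it in 2 control pools. The cause of these shifts was not tested. Aquantile normalization leaves ratios as they are by construction. The strictest filter gave no value for SOX2 and SOX15, whose signal near the negative controls limits what their ratios can show.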

Other observations

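Mean and median pixel intensities of the same spots gave different ratios. With mean pixels the SOX15 log2 ratios of coculture over control were -0.031, 0.54, 1.26 and -0.44 on replicates 1 to 4, against -0.24, 0.064, 1.56 and 0.084 with medians, so replicate 3 stayed the highest and replicate 4 changed sign. SOX2 ratios with mean pixels were 0.46, -0.17, -0.21 and -0.33. The dimmer POU5F1 probe was at -0.021, -0.40, -0.35 and -0.19 with mean pixels, below 0 on all 4 arrays, where its median-pixel ratio on replicate 1 was 0.071. The brighter POU5F1 probe kept its signs, at 0.11, -0.19, -0.37 and -0.40, and GATA6 kept its signs at smaller sizes, 0.31, -0.071, 0.14 and 0.21.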
